A study of Mus musculus with 5 samples.

Results

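The cytosolic ribosomal protein genes encode the proteins that, together with ribosomal RNA, form the large and the small subunit of the ribosome that translates nuclear-encoded messages. They were taken from the deposited tables by symbol: Rpl or Rps followed by a digit, with Rplp0, Rplp1, Rplp2 and Rpsa added, and with the Rps6k kinases and Rps19bp1 left out. The rule found 92 of the 19726 listed symbols. Of these, 46 are standard genes of the large subunit and 31 of the small subunit, which makes 77 standard subunit genes. Another 7 are paralogs whose symbol carries a trailing l (Rpl3l, Rpl7l1, Rpl10l, Rpl22l1, Rpl36al, Rpl39l and Rps27l), and 8 are processed copies (Rpl10-ps3, Rps12-ps3, Rps27rt and 5 others).

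The tumor group (n = 2, replicates 2 and 3) was labelled as CD4+ T cells from tumors of MC38, a transplantable mouse colon carcinoma line. The spleen group (n = 3, replicates 1, 2 and 3) was labelled as CD4+ T cells from spleen. Both tissues came from wild-type C57/Bl6j mice aged 7 weeks, and RNA was taken from 300000 cells a sample. The comparison asks how gene expression in these cells differs between a tumor and a lymphoid organ. The labels do not say whether the libraries of a tissue came from separate mice, so the SD given here is the spread between libraries, which may be technical. The SE of a log2 change also draws on the spread of all other genes, as described under processing.

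Expression was listed as TPM, a share of all transcripts in a library that is scaled to a fixed total and corrected for transcript length. The listed genes summed to 569309 and 596116 TPM in the tumor libraries, against 268987 to 359532 TPM in the spleen libraries, and the rest lay in features that were not listed. Read depth is not known, so no counting interval is given. The 11 listed T cell identity genes (Cd4, Cd3e, Lck and others) summed to 232 and 292 TPM in tumor, against 939 to 1239 TPM in spleen. The 16 macrophage and monocyte genes (Lyz2, Csf1r, C1qa and others) summed to 5662 and 6269 TPM in tumor, with 16 of 16 above 1 TPM, against 19.5 to 21.3 TPM in spleen, with 5 or 6 of 16 above 1 TPM. None of these marker genes was at 0 in any library. B cell genes and genes of epithelium and fibroblasts summed to less than 21 TPM in every library. The part of the macrophage signal in the ribosomal protein values was not tested, and in bulk RNA fewer cells of a type and less RNA per cell cannot be told apart.

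As background, ribosomal protein messages are among the most abundant in a lymphocyte. Most start with a terminal oligopyrimidine (TOP) tract, a run of C and T letters at the transcription start that puts their translation under control of the mTOR kinase. The proteins are made in the cytoplasm, enter the nucleolus and join ribosomal RNA in near equal numbers, and surplus free protein is degraded. A few genes have paralogs that encode the same or a closely related protein and are used in a tissue-restricted way.

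The standard subunit genes took a smaller share of the tumor libraries. Their summed level was 22270 and 24647 TPM in tumor, against 34851, 44061 and 37969 TPM in spleen. The means were 23458 ± 1681 TPM (SD, n = 2) and 38960 ± 4684 TPM (SD, n = 3), so that the tumor sum was 0.602 of the spleen sum. As a share of the listed total, which differed between tissues, the 77 genes made up 3.74% and 4.33% in tumor, against 13.0%, 12.3% and 13.0% in spleen. The tissues did not overlap on either measure. The median over the 77 genes was 284 and 323 TPM in tumor, against 434, 562 and 497 TPM in spleen.

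**Figure D1:**
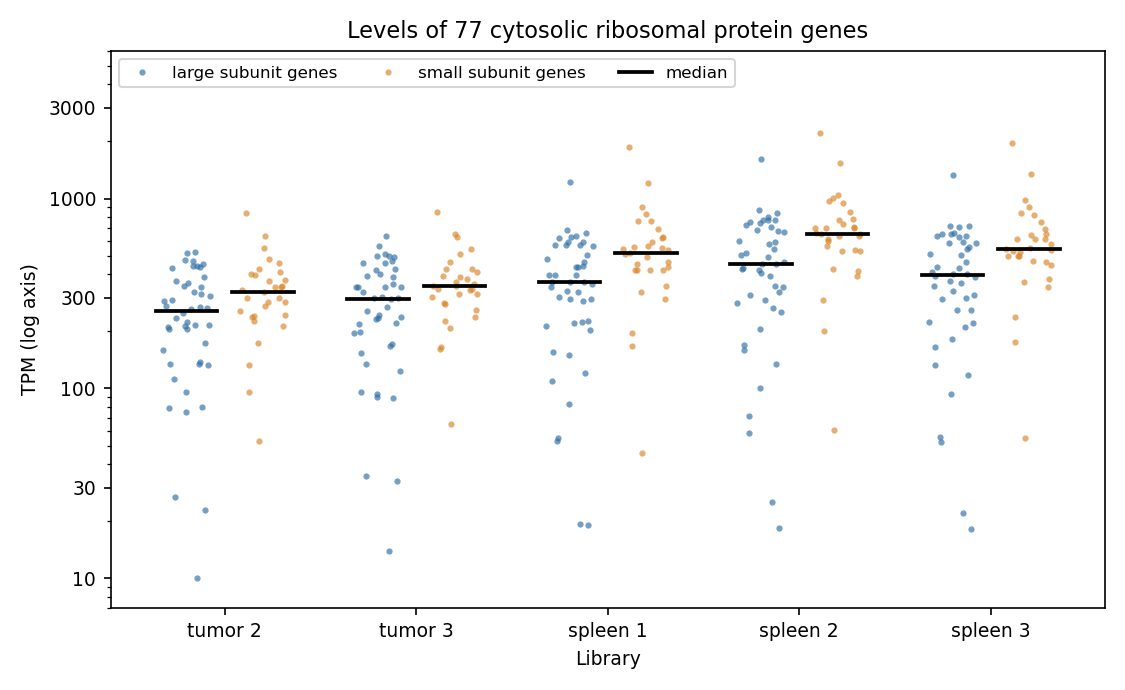
TPM of each of the 77 standard subunit genes in each library on a log axis, with large subunit genes in blue, small subunit genes in orange and a black bar at each median. The median of both subunits lay lower in the 2 tumor libraries than in the 3 spleen libraries. The members of a tumor library spanned 10.1 to 835 TPM in replicate 2 and 14.02 to 845 TPM in replicate 3.

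The subunits were unequal in this. The 31 small subunit genes summed to 10332 and 11279 TPM in tumor, against 17534, 22057 and 19141 TPM in spleen. The 46 large subunit genes summed to 11938 and 13368 TPM in tumor, against 17317, 22004 and 18828 TPM in spleen. The ratio of the large to the small subunit sum, which does not depend on how a library is scaled, was 1.16 and 1.19 in tumor, against 0.988, 0.998 and 0.984 in spleen. The mean ratio was 1.17 ± 0.0210 (SD, n = 2) in tumor and 0.990 ± 0.00717 (SD, n = 3) in spleen, and the difference of 0.181 ranged from 0.166 to 0.195 on leaving out each library. No p-value is given for a sum over chosen genes.

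**Figure D2:**
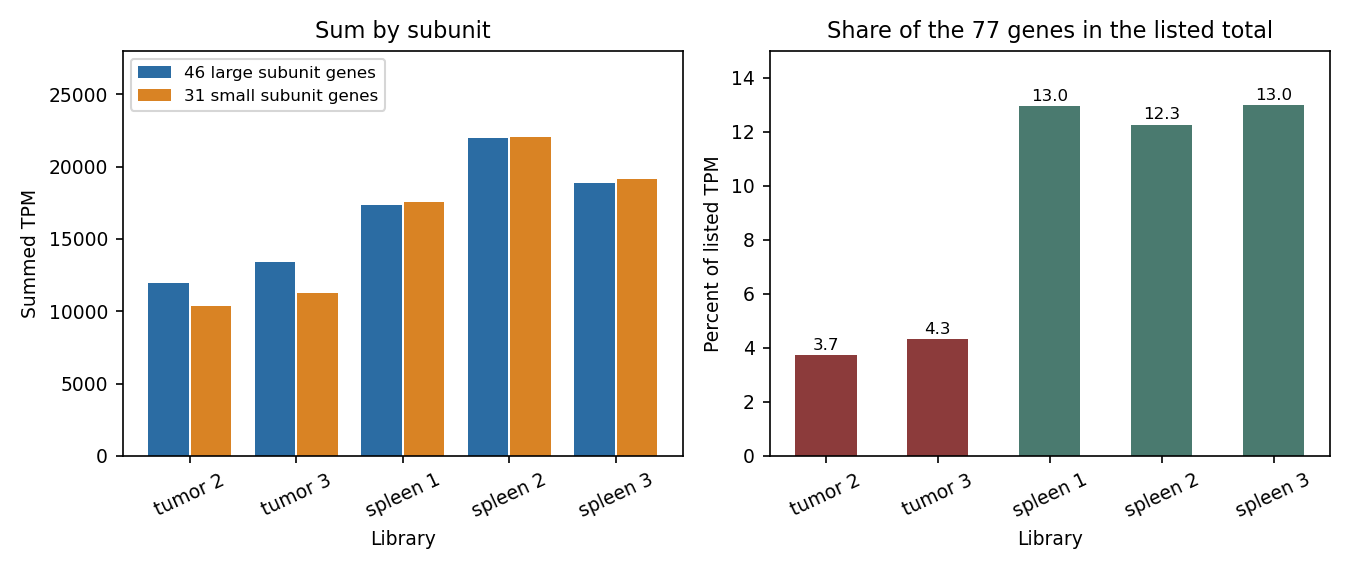
Left, summed TPM of the 46 large and the 31 small subunit genes in each library. Right, percent of the listed TPM in all 77 genes, which was 3.74% and 4.33% in the tumor libraries and 12.3% to 13.0% in the spleen libraries.

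Within a library the members differed far more in level than one member did between libraries. The highest was Rps27, a zinc-finger protein of the small subunit, in all 5 libraries, at 835 and 845 TPM in tumor against 1862, 2224 and 1972 TPM in spleen. The lowest was Rpl12 in tumor, at 10.1 and 14.02 TPM, and Rpl27 in spleen, at 19.1, 18.3 and 18.1 TPM. The order of the 77 genes was close to the same in all libraries of a tissue. Spearman's rho across genes was 0.991 between the tumor libraries, 0.985 to 0.993 between spleen libraries and 0.869 to 0.883 between a tumor and a spleen library. These are descriptions across genes, which share library and depth.

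Most members were lower in tumor. The test was limma on log2(TPM + 1) with adjustment over all 12979 genes tested (mean of at least 1 TPM), and a gene was called at an adjusted p below 0.05. Of the 77 standard subunit genes, which all passed the filter, 57 fell in tumor, 2 rose and 18 were not called. Over all genes tested 59% were called, with 18.1% that fell and 40.9% that rose. By subunit, 31 of 46 large subunit genes and 26 of 31 small subunit genes fell. The median log2 change was -0.71 over the 77 genes, -0.58 over the large subunit genes and -0.82 over the small subunit genes, against 0.23 over all genes tested. For 68 of the 77 genes both tumor libraries lay below all spleen libraries, as for 23.8% of all genes tested, and for 3 they lay above, as for 46.6%. Of the 15 other members 6 passed the filter (4 paralogs and 2 copies); 3 paralogs rose, 1 fell and neither copy was called, so that 58 of 83 tested members fell and 5 rose.

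These directions hold for TPM as deposited. When library totals or upper quartiles were made equal, 79 of the 83 tested members fell, where 51.3% and 49% of all genes fell and the median of all genes moved to -0.54 and -0.45. Scaled on the 11 T cell identity genes, a choice made after seeing the data, all 83 rose with a median of 1.52, where 95% of all genes rose and the median of all genes was 2.11: the ribosomal protein messages were lower relative to most genes and higher relative to T cell identity genes. Without tumor replicate 2, 33 members fell and 4 rose, where 9.38% of all genes fell and 35.9% rose.

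**Figure D3:**
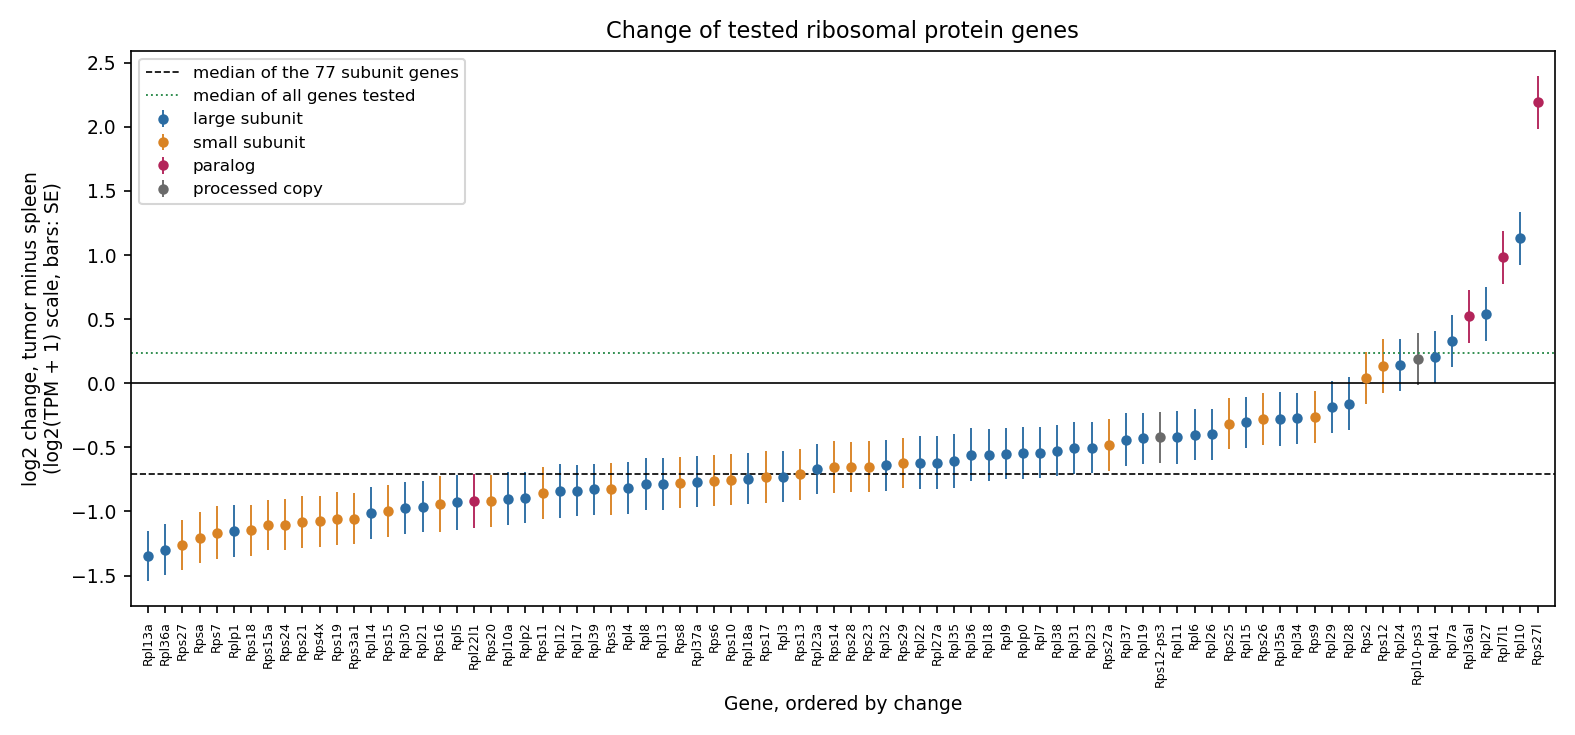
Log2 change, tumor minus spleen, with its SE for the tested members, all but 1 of the 83, ordered and coloured by class. Most points lie between -1.35 and 0 around the dashed median of the 77 subunit genes at -0.71, and the paralog Rps27l stands at the far right at 2.19.

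The deepest falls combined abundant and modest members of both subunits. Rpl13a, a large subunit protein that in human monocytes also acts outside the ribosome in interferon-induced translational silencing, was at 518 and 564 TPM in tumor, against 1219, 1614 and 1324 TPM in spleen. Its log2 change was -1.35 ± 0.20 (SE; limma adjusted p = 7.3e-08). Rps27 averaged 840 ± 7.07 TPM in tumor and 2019 ± 186 TPM in spleen, a log2 change of -1.26 ± 0.19 (limma adjusted p = 1.7e-07). In both genes the tumor libraries lay far below the lowest spleen library.

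Rpsa, the laminin-receptor protein of the small subunit, was at 244 and 260 TPM in tumor, against 537, 632 and 578 TPM in spleen (log2 change -1.21 ± 0.20, limma adjusted p = 9.3e-07). Rps7, a small subunit protein that can bind the p53 regulator MDM2, was at 226 and 228 TPM in tumor, against 423, 600 and 524 TPM in spleen (log2 change -1.17 ± 0.20, limma adjusted p = 2.9e-06). Rps24, the second most abundant small subunit member, averaged 633 ± 4.46 TPM in tumor and 1367 ± 172 TPM in spleen. Rps29 averaged 599 ± 70.4 TPM in tumor and 924 ± 107 TPM in spleen, a smaller fall of 0.62 on the log2 scale. Among abundant large subunit genes, Rpl32 averaged 472 ± 31.3 TPM in tumor and 739 ± 93.5 TPM in spleen, and Rpl23a 448 ± 12.1 TPM in tumor and 716 ± 85.6 TPM in spleen. The falls of Rpl23a, Rpl32 and Rps29 were no longer called without tumor replicate 2, nor those of Rpl32 and Rps29 without spleen replicate 3, nor that of Rps29 with no filter on low genes.

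The 3 stalk proteins, which recruit the elongation factors to the large subunit, did not move by the same amount. Rplp1 was at 251 and 299 TPM in tumor, against 569, 683 and 585 TPM in spleen, a log2 change of -1.15 ± 0.20 (limma adjusted p = 2.5e-06). Rplp2 was at 307 and 344 TPM in tumor, against 565, 665 and 587 TPM in spleen, a log2 change of -0.89 ± 0.20 (limma adjusted p = 1.4e-04). Rplp0, the protein that anchors the other two, was at 291 and 323 TPM in tumor, against 397, 516 and 435 TPM in spleen, a log2 change of -0.54 ± 0.20 (limma adjusted p = 0.019). The fall of Rplp0 was no longer called when either tumor library or spleen replicate 3 was left out, or with no filter on low genes.

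To ask which members departed from the rest, the median log2 value of the 77 genes was subtracted from each library and the same test was run over all 12979 genes. A factor common to a library then drops out. Of the 77 genes, 22 were higher and 19 lower in tumor relative to the family median, and 36 were not called. Over all genes 69.7% were called on this scale, 66.1% higher and 3.64% lower, where the median of all genes was 0.94. Since the genes were centred on their own median, a spread to both sides is built in. Of the 22 on the higher side 16 belonged to the large subunit, which holds 46 of the 77 genes. Of the 19 on the lower side 13 belonged to the small subunit, which holds 31 of the 77. The 6 large subunit genes on the lower side were Rpl13a, Rpl14, Rpl21, Rpl30, Rpl36a and Rplp1. The 6 small subunit genes on the higher side were Rps2, Rps9, Rps12, Rps25, Rps26 and Rps27a, the last of which is made as a fusion with ubiquitin. Rps12 and, in the large subunit, Rpl10 are counted among the 22 although their own levels are uncertain. Each has a listed copy with the same coding sequence, described below. Rpl21 and Rps27a lay just past the threshold (limma adjusted p = 0.048 and 0.049). With the paralogs and copies 46 members departed, and 35 to 44 did on leaving out each library.

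Only 2 of the 77 standard genes rose in the deposited TPM. Rpl10, a large subunit protein that joins late in subunit maturation, was at 112 and 134 TPM in tumor, against 53.1, 58.0 and 55.7 TPM in spleen (log2 change 1.13 ± 0.21, limma adjusted p = 5.8e-06). It is reported as uncertain because a listed copy, described below with its own values, has the same coding sequence, and with equal totals its change of 0.21 was not called. Rpl27, a large subunit protein, was at 23.1 and 32.5 TPM in tumor, against 19.1, 18.3 and 18.1 TPM in spleen (log2 change 0.54 ± 0.21, limma adjusted p = 0.025). Its call was lost by median ratios, and its sign changed when totals or upper quartiles were made equal. It was also lost without tumor replicate 3 or spleen replicate 3, and with the replicate number as a block (limma adjusted p = 0.064). The block fit gave a change of 0.563, the same as without spleen replicate 1, where Rpl27 was called (limma adjusted p = 0.022). Relative to the family, Rpl10 was higher by 1.84 ± 0.10 and Rpl27 by 1.25 ± 0.16.

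Of the 18 standard genes that were not called, Rpl7a, Rpl41, Rpl24 and Rps12 stood highest relative to the family. Rpl7a, a large subunit protein, was at 267 and 301 TPM in tumor, against 203, 253 and 222 TPM in spleen, so that the tissues did not overlap (log2 change 0.33 ± 0.20, limma adjusted p = 0.16). Without spleen replicate 2 its change of 0.41 was called. Rpl41, the smallest of the ribosomal proteins, was at 526 and 635 TPM in tumor, against 434, 575 and 507 TPM in spleen, and the tissues overlapped. Rpl24 was at 262 and 303 TPM in tumor, against 220, 292 and 260 TPM in spleen, also with overlap. Rps12 was at 53.2 and 64.9 TPM in tumor, against 45.9, 60.2 and 54.8 TPM in spleen, and is uncertain for the same reason as Rpl10. Relative to the family these 4 were higher by 1.04, 0.91, 0.85 and 0.85 (limma adjusted p = 4.4e-06, 9.6e-06, 1.4e-05 and 4.7e-05). The levels of these 4 were lower in tumor when library totals were set equal, by 0.60 to 0.79 on the log2 scale. Rpl7a and Rpl24 share most of their transcript sequence with genes that are not listed, as given below, so their levels are uncertain as well.

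Of the 4 tested paralogs, 3 rose while the gene they resemble fell, where 40.9% of all genes tested rose. A lower log2 change than that of Rps27l was seen for 90.1% of all genes tested. The share was 73.3% for Rpl7l1 and 60.5% for Rpl36al. Rps27l (chromosome 9, 66946086 to 66949516, GRCm38) encodes a near twin of Rps27 (chromosome 3, 90212522 to 90213651) and is known as a p53 target. It was at 119 and 132 TPM in tumor, against 25.1, 28.3 and 26.8 TPM in spleen, the largest rise among the 83 tested members (log2 change 2.19 ± 0.21, limma adjusted p = 3.9e-13). Rps27 fell in the same libraries, so that Rps27l was 14.3% and 15.7% of the Rps27 level in tumor, against 1.35%, 1.27% and 1.36% in spleen. The ratio was 11.3-fold higher in tumor, and the log2 ratio differed by 3.495 (range 3.43 to 3.56 on leaving out each library). The rise of Rps27l was called under each scaling of the deposited values and without each library. The summed level of the pair was 966 ± 16.3 TPM in tumor and 2046 ± 187 TPM in spleen, since the parent was by far the larger part.

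The coding sequences of the pair are shown because they decide whether reads of one gene can be told from reads of the other. They are from GENCODE M21 transcripts on GRCm38, and capitals mark the bases at which the pair differs.

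Rps27l: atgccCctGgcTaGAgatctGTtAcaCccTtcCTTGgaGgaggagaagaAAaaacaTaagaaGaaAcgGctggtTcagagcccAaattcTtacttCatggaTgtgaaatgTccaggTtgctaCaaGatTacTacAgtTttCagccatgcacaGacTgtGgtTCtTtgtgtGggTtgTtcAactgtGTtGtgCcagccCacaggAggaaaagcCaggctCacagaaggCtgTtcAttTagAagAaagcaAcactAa

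Rps27: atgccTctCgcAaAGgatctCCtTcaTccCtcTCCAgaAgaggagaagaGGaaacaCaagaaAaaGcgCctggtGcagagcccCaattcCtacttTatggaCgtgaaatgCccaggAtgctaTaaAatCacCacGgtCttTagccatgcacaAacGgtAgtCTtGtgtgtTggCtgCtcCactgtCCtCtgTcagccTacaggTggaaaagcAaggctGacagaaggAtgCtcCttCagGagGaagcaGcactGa

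The pair differs at 61 of 255 bases, in 54 codons, of which 3 encode another amino acid. No 31-base word of the coding sequence is shared within the pair, 31 being the word length used here to look for ambiguous sequence. Of the words in Rps27 transcripts, 50.1% occur in some other gene, against 22.9% for Rps27l.

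Rpl36al (chromosome 12, 69182731 to 69184083) and Rpl36a (chromosome X, 134585654 to 134588062) showed the same kind of shift. Rpl36al was at 134 and 167 TPM in tumor, against 94.5, 117 and 100.2 TPM in spleen (log2 change 0.52 ± 0.21, limma adjusted p = 0.027). Rpl36a was at 133 and 124 TPM in tumor, against 295, 344 and 312 TPM in spleen (log2 change -1.30 ± 0.20, limma adjusted p = 2.8e-07). Rpl36al made up 50.2% and 57.4% of the pair in tumor, against 24.2%, 25.4% and 24.3% in spleen. Their summed level was 279 ± 17.3 TPM in tumor and 421 ± 36.3 TPM in spleen. The rise of Rpl36al was not called without either tumor library, without spleen replicate 3, by median ratios or with the replicate number as a block (limma adjusted p = 0.13). The block fit gave a change of 0.459, the same as without spleen replicate 1, where Rpl36al was called (limma adjusted p = 0.036). The sign of the Rpl36al change reversed when totals or upper quartiles were made equal. The log2 ratio of the pair, which no scaling touches, was higher in tumor by 1.83 and by 1.62 to 2.04 on leaving out each library.

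The coding sequences of Rpl36al and Rpl36a differ at 39 of 321 bases, in 38 codons, and 0 of these encode another amino acid, so that the predicted proteins are the same. No 31-base word of the coding sequence is shared within the pair. Of the words in Rpl36a transcripts, 87.6% occur in some other gene, 66.0% in the copy Rpl36a-ps1, against 23.4% for Rpl36al. The Rpl36a level and the pair ratio therefore also depend on how reads were divided with such genes.

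Rpl7l1 and Rpl22l1 are more distant from their namesakes. Rpl7l1 (chromosome 17, 46773907 to 46782672) was at 20.2 and 24.5 TPM in tumor, against 9.55, 11.6 and 11.3 TPM in spleen (log2 change 0.98 ± 0.21, limma adjusted p = 6.6e-05), while Rpl7 fell by 0.54. Its rise was not called with equal totals or on the upper quartile, and the fall of Rpl7 was not called when either tumor library or spleen replicate 3 was left out, or with no filter on low genes. The log2 ratio of Rpl7l1 to Rpl7 was higher in tumor by 1.59. Rpl22l1, which Rpl22 is known to repress in mouse cells, went the other way. It was at 61.6 and 74.7 TPM in tumor, against 110, 160 and 123 TPM in spleen (log2 change -0.92 ± 0.21, limma adjusted p = 2.1e-04). Rpl22, needed for the development of mouse αβ T cells, was at 206 and 236 TPM in tumor, against 296, 404 and 325 TPM in spleen, and its fall of 0.62 was not called without tumor replicate 2 or spleen replicate 3. Rpl22l1 was 29.95% and 31.7% of Rpl22 in tumor, against 37.1%, 39.5% and 37.8% in spleen.

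**Figure D4:**
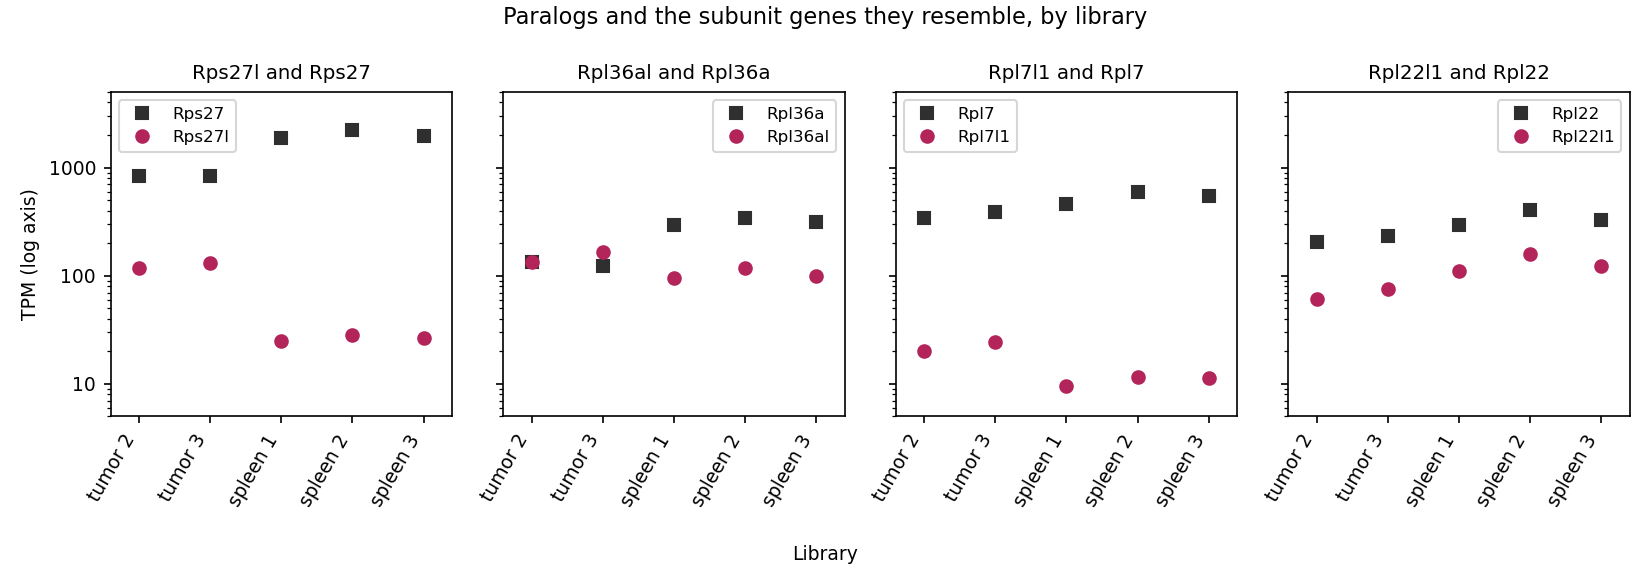
TPM of 4 paralogs (circles) and of the subunit genes they resemble (squares) in each library, on a shared log axis. Rps27l, Rpl36al and Rpl7l1 lie higher and their namesakes lower in the 2 tumor libraries, whereas Rpl22l1 and Rpl22 are both lower there.

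In each of these 4 ratios no tumor value lay within the range of the spleen values. Such separation was common for the levels of single genes. Of all genes tested, 46.6% were higher in both tumor libraries than in all spleen libraries, and 23.8% were lower. No such share was computed for ratios of other genes. An exact permutation test of each log2 ratio of a paralog to its namesake, two-sided with the smaller tail doubled, gave p = 0.2. The value was the same after adjustment over the 6 ratios computed, which include 2 of identical copies that are not read here. With 2 libraries against 3, this form of the test cannot give less than 0.2, so it decides nothing.

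The other paralogs were at or near the floor. Rpl10l, a testis gene that stands in for X-linked Rpl10 in mouse germ cells, was at 0 and 0.34 TPM in tumor, against 0.24, 0.24 and 0.48 TPM in spleen. Rpl39l, also enriched in testis, was at 0 and 0.49 TPM in tumor, against 1.50, 0.73 and 1.17 TPM in spleen. Rpl3l, the striated muscle form of Rpl3, was at 1.12 and 0.91 TPM in tumor, against 0.37, 0.32 and 0.83 TPM in spleen. None of the 3 passed the filter, and none was tested. Their namesakes Rpl3 and Rpl39 fell by 0.73 and 0.83, and the fall of Rpl3 was not called without tumor replicate 2.

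Among the processed copies, 2 were listed far above the gene they derive from. Rpl10-ps3 (chromosome 9, 50344201 to 50344968) was at 500 and 589 TPM in tumor, against 409, 547 and 481 TPM in spleen. Rps12-ps3 (chromosome 19, 59322290 to 59322783) was at 513 and 525 TPM in tumor, against 617, 796 and 683 TPM in spleen. In the reference used here each copy has a coding sequence identical to one of its parent, over 645 and 399 bases, and 96.2% and 100% of its 31-base words occur in the parent's transcripts. Reads from the coding part therefore cannot be assigned to either, and only the sum of the pair is read here. Rpl10-ps3 shares words with 35 genes and Rps12-ps3 with 26. The pair sums therefore also depend on how reads were divided with genes outside the pair. Rpl10 and Rpl10-ps3 together were at 613 and 723 TPM in tumor, against 462, 605 and 537 TPM in spleen, so that the lowest tumor library and the highest spleen library nearly met. Rps12 and Rps12-ps3 together were at 566 and 590 TPM in tumor, against 663, 856 and 738 TPM in spleen.

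**Figure D5:**
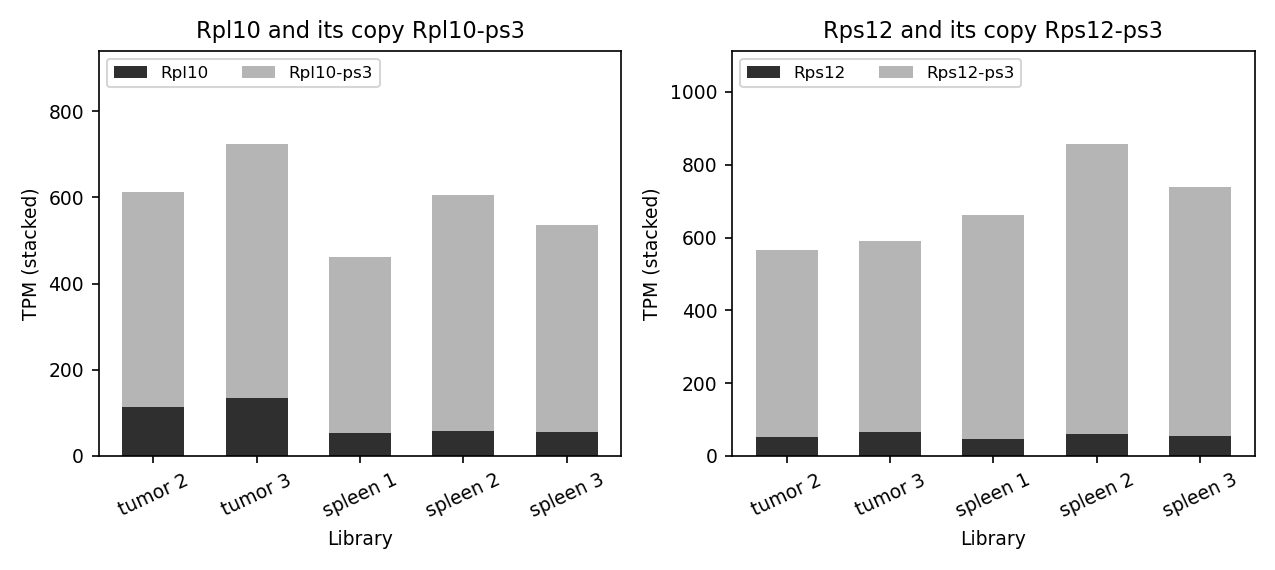
Stacked TPM of Rpl10 with its copy Rpl10-ps3 and of Rps12 with its copy Rps12-ps3 in each library. The copy holds 81.4% to 93.1% of each pair, and the pair sums stand at 613 and 723 TPM in tumor for Rpl10 and at 566 and 590 TPM in tumor for Rps12.

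The remaining 6 copies did not pass the filter. Rps27rt was listed at 0 in both tumor libraries and at 0, 3.58 and 0.07 TPM in spleen, and Rpl9-ps6 at 0 in both tumor libraries and at 0, 3.20 and 1.49 TPM in spleen, although 91.6% and 92.3% of their 31-base words occur in Rps27 and Rpl9. Rpl9-ps1, Rpl13a-ps1, Rpl36-ps4 and Rpl36a-ps1 stayed at or below 1.11 TPM in every library.

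Sequence sharing was common in the family. Of the 31-base words in a standard gene's protein-coding transcripts, a median of 44.5% also occurred in a transcript of another gene, and the highest share was 94.1%, for Rpl36. Over 50% of the words were shared for 27 of the 77 genes, and for 7 genes over 30% were shared with a gene the files list. Of the genes named as high relative to the family, Rpl7a had 85.0% and Rpl24 82.2% shared, with genes that are not listed. It was 75.8% for Rpl10, 69.3% for Rps12, 40.8% for Rpl27 and 37.7% for Rpl41. Across the 77 genes Spearman's rho with the change relative to the family was 0.001 for this share, -0.05 for coding length and -0.32 for the mean level. These are descriptions across genes that share libraries. For Rps18, Rplp1 and Rplp2, the main listed partners Gm11361, Gm10073 and Wdr89 were at 0.13 to 2.99 TPM, far below the members.

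Promoter letters were compared because most members fell together. RefSeq windows (GRCm38.p6) were found for 65 of the 92 members, 57 of them standard subunit genes. The word CTTTC, a common form of the TOP tract, read on the gene strand from 50 bases before to 50 bases after an annotated start, occurred for 31 of the 57 standard genes (54.4%), against 13.2% of 17492 protein-coding genes. It occurred for 23 of 34 large and 8 of 23 small subunit genes. The word CCGGAAG, the core bound by ETS factors, searched on both strands, occurred for 13 of 57 (22.8%), against 8.0% of protein-coding genes. CTTTC was found for 22 of the 39 members that fell, 9 of the 17 not called and 1 of the 5 that rose. Among the pairs of a tested paralog and its namesake that both had a window, CTTTC occurred for Rps27 and Rpl22 but not for Rps27l and Rpl22l1, although Rpl22l1 fell, and it occurred for both Rpl36al and Rpl36a. The windows of Rps27l and Rps27 are shown because this pair differed most in its change. Each starts 20 bases before an annotated start, the first of the annotated starts for Rps27l, and capitals mark CTTTC, which occurs at 2 places for Rps27.

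Rps27 (chr3:90213639-90213668, minus strand): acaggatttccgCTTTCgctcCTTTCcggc

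Rps27l (chr9:66946066-66946095, plus strand): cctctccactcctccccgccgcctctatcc

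A match describes letters in these windows and is not evidence of a factor or of a start in these cells.

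A few genes of subunit proteins fall outside the symbol rule. Fau, which encodes a ubiquitin-like fusion with Rps30, was at 475 and 534 TPM in tumor, against 343, 454 and 389 TPM in spleen (log2 change 0.36 ± 0.20, limma adjusted p = 0.12). Rack1, a scaffold protein of the small subunit, was at 221 and 271 TPM in tumor, against 333, 427 and 381 TPM in spleen, and fell by 0.63 (limma adjusted p = 0.0075).

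Of 49 ribosome biogenesis genes, 13 rose (26.5%) and 9 fell (18.4%), and the test called neither direction for 27 (median 0.02 on the log2 scale). Over all genes tested 40.9% rose and 18.1% fell, so the share that fell was near the background and the share that rose below it. Eif6, which keeps the subunits apart until the large one is mature, was at 47.2 and 51.0 TPM in tumor, against 15.6, 24.1 and 17.5 TPM in spleen (log2 change 1.34 ± 0.21, limma adjusted p = 4.2e-07). Wdr12, a large subunit assembly factor, was at 9.42 and 10.1 TPM in tumor, against 18.8, 21.4 and 19.1 TPM in spleen (log2 change -0.94 ± 0.21, limma adjusted p = 1.0e-04). Of 22 other TOP messages, which include Fau and Rack1, 6 rose (27.3%), 3 fell (13.6%) and 13 were not called (median -0.07), both shares below those of all genes. The elongation factor gene Eef1b2 was at 187 and 203 TPM in tumor, against 307, 426 and 356 TPM in spleen. Vim, the gene of the intermediate filament vimentin, was at 1343 and 1378 TPM in tumor, against 58.0, 80.7 and 81.1 TPM in spleen. The macrophage marker sum moved with it, at 5662 and 6269 TPM in tumor, and its part in the level of Vim was not tested. Of 12 genes of mTOR and TOP control 5 rose (41.7%), 1 fell (8.3%) and 6 were not called, so the share that rose was near that of all genes. The cap-binding factor gene Eif4e was at 169 and 182 TPM in tumor, against 30.6, 39.6 and 36.5 TPM in spleen. Eif4ebp2, which encodes an inhibitor of it, was at 4.78 and 4.98 TPM in tumor, against 7.44, 14.2 and 8.74 TPM in spleen. Eif4ebp1, the other such inhibitor gene on the list, rose (log2 change 1.31 ± 0.21, limma adjusted p = 3.6e-07). It was at 35.5 and 35.1 TPM in tumor, against 14.7, 12.2 and 14.1 TPM in spleen. Lists and family were not tested against each other.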

How the data were processed

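RNA of 5 libraries labelled as CD4+ T cells was depleted of ribosomal RNA, made into stranded libraries and read in 75 bp pairs, per the labels' protocols. No source used here states a cell isolation method. The deposited files hold 1 TPM value per gene symbol and library, made by the authors. Kallisto, DESeq2 and mm10 are named, per the submitters' processing notes, without versions or roles, and the annotation is not given. TPM are shares of a total, and the unlisted part differed between tissues, so all listed genes can shift together. Reads that fit several family members are divided by estimation, which bears on copies and pseudogenes.

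Values were tested as log2(TPM + 1) for the 12979 genes that averaged 1 TPM or more, with limma 3.58.1 in R 4.3.3 (tissue as the only term, mean-variance trend, two-sided, Benjamini-Hochberg adjustment over all genes, 3 residual and 44.1 prior degrees of freedom). With 44.1 prior against 3 residual degrees of freedom, the SE of a log2 change in deposited TPM rests mostly on the variance trend over all genes. It is not a measure of the spread of that gene alone. The log2(TPM + 1) scale understates changes of low genes. The test was checked on simulated data with independent normal errors and no shift between libraries. That check does not bear on scaling or on reads shared between genes. A second fit subtracted the median log2 value of the 77 standard genes from each library. Coordinates, transcripts and 31-base words came from GENCODE M21 (GRCm38) and promoters from RefSeq. Members and lists were chosen with earlier results of these data known.

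Named by rule were the paralogs with their parents, the 6 highest and 6 lowest standard genes relative to the family with a mean of at least 10 TPM, the 3 most abundant of each subunit, the stalk genes and Rpsa, members called against the majority, and the called gene with the smallest p in each direction of each other list. The other members given with values (the copies, Rpl12, the partners of shared sequence) and Eif4ebp1 were chosen after their values were seen. A few items, 1 point of a plot among them, are not reported here.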

Additional observations from a re-analysis of the deposited data

How the results depend on the processing

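Direction and count depended on scaling. Genes that rose and fell numbered 2724 and 6662 with equal totals, 3078 and 6366 with equal upper quartiles, 12331 and 115 on T cell identity genes (chosen after seeing the data), against 5309 and 2347 as deposited; with a filter at a mean of 5 TPM, 1456 fell. Members that rose numbered 3 by median ratios, where 37.3% of all genes rose. They numbered 1 with equal totals, 2 with equal upper quartiles and 83 on T cell identity genes, where 0 fell, against 5 as deposited. The median change of the members was -1.58 with equal totals, -1.47 with equal upper quartiles and 1.52 on T cell identity genes, against -0.65. With equal totals the changes of Rpl24, Rpl27, Rpl36al, Rpl41, Rpl7a and Rps12 turned to -0.79, -0.35, -0.40, -0.73, -0.60 and -0.78, and with equal upper quartiles to -0.68, -0.25, -0.29, -0.62, -0.49 and -0.67; the scaling factor itself sets these signs.

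On leaving out each library, 4311 to 5894 genes rose and 1225 to 2609 fell, 3 to 6 members rose and 33 to 67 fell, their median stayed between -0.75 and -0.58, and 35 to 44 members departed from the family. Over the same fits the change of Rps12 ranged from -0.004 (without tumor replicate 3) to 0.279, that of Rpl23a relative to the family from -0.025 (without tumor replicate 2) to 0.103 and that of Rpl3 relative to the family from -0.054 to 0.013 (without tumor replicate 3), and the values past 0 were not called. Relative to the family the other 25 of the 27 tested genes named by rule kept direction and side of the threshold under every filter, pseudocount and left-out library; the other departing members were recomputed only as a count. Where 1 tumor library is left, its spread is taken to equal that in spleen.

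Replicate numbers 2 and 3 occur in both tissues. The difference between these replicates in tumor correlated with that in spleen at r = 0.173 over 12979 genes. A single correlation of 2 library differences cannot show whether the numbers mark paired libraries. With the replicate number as a block 3 members rose and 61 fell, where 37.6% of all genes rose and 15.5% fell. The calls of Rpl27 and Rpl36al were lost. Spleen replicate 1 has no tumor library of its number. The block fit therefore gave the same changes as leaving that library out, where both genes were called. Count models were not run, since the files hold TPM.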
